A study of Homo sapiens with 6 samples.

Results

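The microRNA processing machinery was followed through 9 genes, DROSHA, DGCR8, XPO5, DICER1, TARBP2, AGO1, AGO2, AGO3 and AGO4, of 18417 genes measured in U-87 cells, an established human glioma line. The genes were taken by symbol, and each was represented by 1 probe set annotated to no other gene. The rule that took them uses no measured difference between the groups, but the list was chosen with earlier results of these data known. The study lowered P68, an RNA helicase of the DEAD-box family whose gene is DDX5. Its 6 Affymetrix arrays, which summarise probes per gene, measured total RNA of U-87 cells kept in 1 serum-containing medium, with 3 arrays for P68 knockdown and 3 for P68 wild type. Cells received either an siRNA against P68 or a reagent abbreviated NC, and which arrays received NC is not written out. The model is 1 cell line, and nothing in the labels says that replicate arrays hold RNA of different cultures, so the spread behind every p-value is that of the arrays and may be technical.

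MicroRNAs are cut from long primary transcripts in steps. In the nucleus, the ribonuclease DROSHA and its RNA-binding partner DGCR8 form the Microprocessor, which releases a hairpin precursor, and P68 is known as an accessory helicase of that complex. Exportin-5, encoded by XPO5, carries the precursor to the cytoplasm, where DICER1 and its partner TARBP2 cut it to a duplex. An argonaute protein then keeps 1 strand and uses it to find target messenger RNAs. The arrays measured messenger RNA of these proteins, not their activity or the microRNAs they make.

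Signals are log2 values, and a difference is the knockdown mean minus the wild-type mean on that scale. Array medians over all probe sets lay between 4.32 and 4.37. Probe sets differ in how brightly they report a transcript, so levels of single genes are not set against each other. The dimmest 40% of genes by mean signal is used only as a coarse mark of probe sets whose signal may be background, and it can also hold a transcript that its probes report poorly. The glioma line markers VIM, NES, S100A6, GFAP and OLIG2 were above the dimmest 40% of genes, while CD44, S100B and SOX2 were within it. All 4 immune cell markers and all 3 epithelial markers listed lay in the dimmest 40%, as did 1 of 4 neuron markers and 1 of 3 endothelial markers. The neuron markers RBFOX3, SNAP25 and SLC17A7 and the endothelial markers PECAM1 and VWF lay above it. A signal above the mark therefore does not show that a transcript was present. None of the listed markers passed the threshold between the groups. CD14, a monocyte marker in the dimmest 40%, differed by 0.42 ± 0.13 (SE, limma adjusted p = 0.902) without overlap of the groups, at 4.34, 4.65 and 4.39 on the knockdown arrays, against 4.16, 3.79 and 4.17 on the wild-type arrays. SYT1, a neuron marker also in the dimmest 40%, differed by 0.20 ± 0.12 (SE), again without overlap, which 10.1% of all genes showed in either direction. Both were named after their values were seen, and their part in the results below was not tested.

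DDX5, the targeted gene, had signals of 9.47, 9.79 and 9.91 on knockdown arrays 1, 2 and 3, against 10.09, 10.25 and 10.30 on the wild-type arrays. The groups did not overlap. The difference was -0.49 ± 0.13 (SE). Its adjusted p over all genes was 0.902 (limma), and the exact permutation p of 0.1 is the smallest that 3 arrays against 3 allow. The knockdown arrays thus carried 71.2% of the wild-type DDX5 signal (95% CI 58.4% to 86.9%). In bulk RNA, fewer cells that make a transcript and less of it per cell cannot be told apart.

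All 9 processing genes had mean signals below those of the wild type in the knockdown, by 0.013 to 0.36, and none passed the threshold of an adjusted p under 0.05. Their adjusted p-values ran from 0.902 to 0.993 (limma). Over all genes, 0 passed (0%), and 46.5% had a difference below 0, a share that became 51.7% with each array centred on its median. None of the 9 had an unadjusted p under 0.05, against 5.09% of all genes, and in none did the groups fail to overlap, against 10.1% of all genes. The median difference of the 9 genes was -0.10, beside 0.01 for all genes. Of the 9 differences, 6 lay below 0 without wild-type replicate 1, 7 without knockdown replicate 1 or without knockdown replicate 2, 8 without knockdown replicate 3, and all 9 without wild-type replicate 2 or 3.

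**Figure D1:**
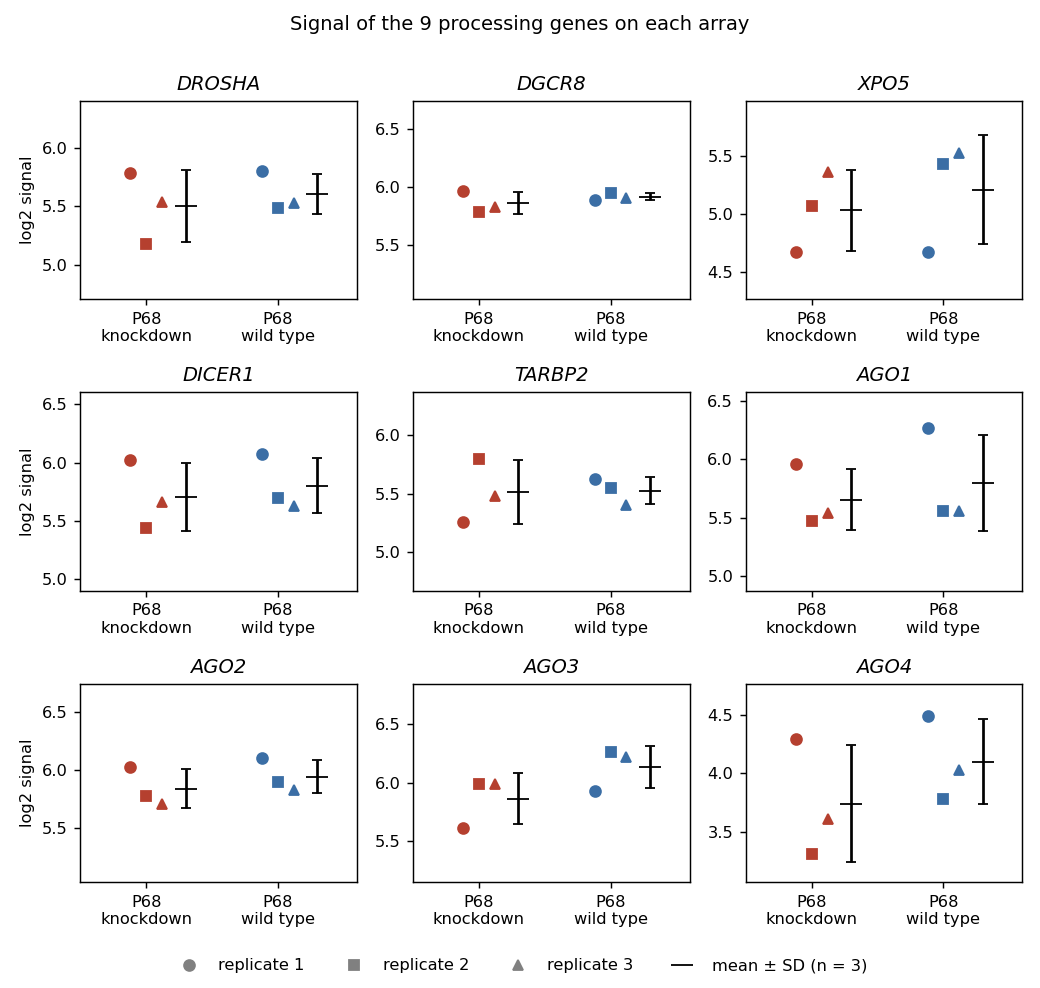
Log2 signal of each of the 9 genes on the 3 P68 knockdown arrays (red, left) and the 3 P68 wild type arrays (blue, right), with the mean ± SD beside each group and a marker shape for each replicate number. The groups overlap for every gene, and each panel spans the same height on the log2 axis.

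The 2 Microprocessor genes differed in how far they varied. DROSHA, the ribonuclease that crops primary transcripts, had signals of 5.79, 5.18 and 5.54 on knockdown arrays 1, 2 and 3, against 5.80, 5.49 and 5.53 on the wild-type arrays. Knockdown replicate 2 was the lowest of the 6 arrays, and both arrays numbered 1 were the highest. The difference of -0.10 ± 0.16 (SE) corresponds to 93.1% of the wild-type signal (95% CI 73.2% to 118%), and it was 0.058 without knockdown replicate 2. DGCR8, the partner that binds the hairpin and whose own transcript is a known Microprocessor substrate, gave 5.97, 5.79 and 5.83 on the knockdown arrays, against 5.89, 5.95 and 5.91 on the wild-type arrays. Its SE was the smallest of the 9 genes, with a difference of -0.053 ± 0.099 (SE), or 96.4% of the wild-type signal (95% CI 82.8% to 112%). A DGCR8 signal in the knockdown below 82.8% of the wild type is outside that interval.

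XPO5, which exports precursors with the GTPase RAN, had signals of 4.67, 5.07 and 5.36 on knockdown arrays 1, 2 and 3, against 4.67, 5.43 and 5.52 on the wild-type arrays. The array numbered 1 was the dimmest of its group in both groups, at the same signal. XPO5 differed by -0.17 ± 0.23 (SE), which is 88.7% of the wild-type signal (95% CI 62.4% to 126%). Leaving out wild-type replicate 1 gave -0.44, and leaving out knockdown replicate 1 gave 0.0083.

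For the dicing step, DICER1, the ribonuclease that cuts the precursor, gave 6.02, 5.44 and 5.66 on knockdown arrays 1, 2 and 3, against 6.07, 5.70 and 5.63 on the wild-type arrays. As for DROSHA, the arrays numbered 1 were the brightest of both groups and knockdown replicate 2 was the dimmest array. DICER1 differed by -0.093 ± 0.16 (SE), which is 93.7% of the wild-type signal (95% CI 72.9% to 121%), and leaving out knockdown replicate 2 gave 0.040 and leaving out wild-type replicate 1 gave 0.042. TARBP2, the double-stranded RNA-binding partner of DICER1, gave 5.26, 5.80 and 5.48 on the knockdown arrays, against 5.63, 5.55 and 5.40 on the wild-type arrays. The knockdown arrays held both its lowest and its highest signal. Its difference of -0.013 ± 0.14 (SE) was the smallest of the 9 (95% CI 79.8% to 123% of the wild-type signal), and without knockdown replicate 1 it was 0.11.

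**Figure D2:**
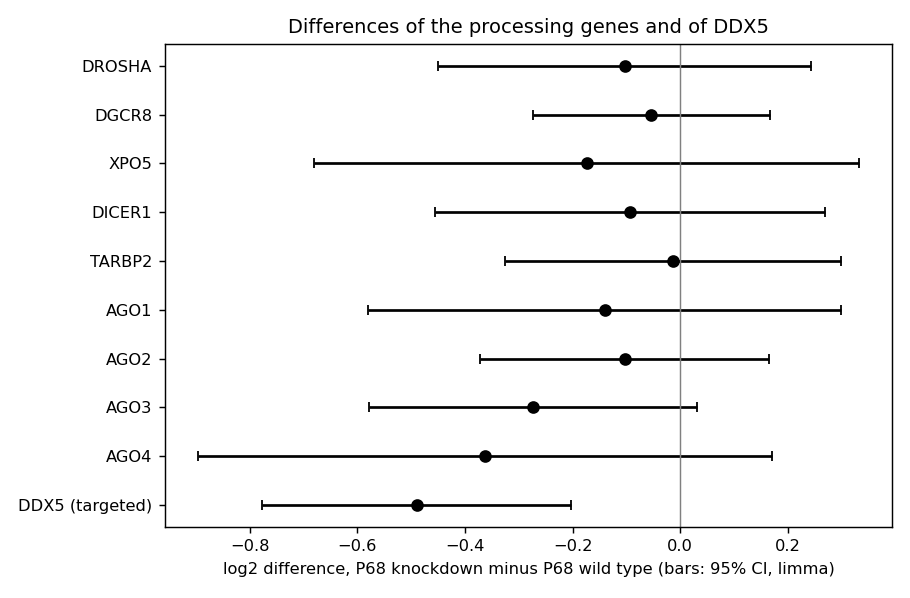
Log2 difference of the 9 processing genes and of the targeted gene DDX5, P68 knockdown minus P68 wild type, with 95% confidence intervals from limma (3 arrays per group). All 9 points lie left of 0 and all 9 intervals cross it, while the interval of DDX5 runs from -0.78 to -0.20.

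Of the argonautes, AGO2 is the one best known for cutting targets, and all 4 can load microRNAs. AGO2 gave 6.03, 5.78 and 5.71 on knockdown arrays 1, 2 and 3, against 6.10, 5.90 and 5.83 on the wild-type arrays. It differed by -0.10 ± 0.12 (SE), which is 93.1% of the wild-type signal (95% CI 77.2% to 112%), and it was below 0 with any 1 array left out. AGO1 gave 5.96, 5.47 and 5.54 in the knockdown, against 6.27, 5.56 and 5.56 in the wild type. Wild-type replicate 1 was the brightest array for AGO1, and the difference of -0.14 ± 0.20 (SE) was 0.097 without it.

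The pair with the largest differences was AGO4 and AGO3. AGO4 had signals of 4.29, 3.31 and 3.61 on knockdown arrays 1, 2 and 3, against 4.49, 3.78 and 4.03 on the wild-type arrays. The arrays numbered 1 were again the brightest of both groups, and knockdown replicate 1 was above wild-type replicates 2 and 3. AGO4 differed by -0.36 ± 0.24 (SE), which is 77.7% of the wild-type signal (95% CI 53.7% to 112%), with an adjusted p of 0.902 (limma). It was -0.64 when knockdown replicate 1 was left out, -0.17 when wild-type replicate 1 was, and -0.15 when knockdown replicate 2 was. AGO4 was the only one of the 9 genes in the dimmest 40% of all genes. Without detection calls, signal and background cannot be told apart there, and the other genes are not shown to be clear of background.

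AGO3 gave 5.61, 5.99 and 5.99 on the knockdown arrays, against 5.93, 6.26 and 6.22 on the wild-type arrays. The arrays numbered 1 were the dimmest of both groups, opposite to AGO1 and AGO4, and the groups overlapped because wild-type replicate 1 lay below knockdown replicates 2 and 3. AGO3 differed by -0.27 ± 0.14 (SE), which is 82.7% of the wild-type signal (95% CI 67.0% to 102%), with an adjusted p of 0.902 (limma). Leaving out wild-type replicate 1 gave -0.38, and leaving out knockdown replicate 1 gave -0.15.

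AGO4, AGO1 and AGO3 follow one another along chromosome 1 in the RefSeq annotation (GRCh38.p14), with no protein-coding gene between them. The 250 bases before the start of each are shown, and any bearing of them on the signals of these neighbours was not tested. Capitals mark matches on either strand to the GC box GGGCGG or the CCAAT box CCAAT. No match to the TATA box TATAAA was present, and no 2 marked matches overlap. The sequences are from RefSeq and read along the strand of the gene.
AGO4, chr1:35807766-35808015, + strand: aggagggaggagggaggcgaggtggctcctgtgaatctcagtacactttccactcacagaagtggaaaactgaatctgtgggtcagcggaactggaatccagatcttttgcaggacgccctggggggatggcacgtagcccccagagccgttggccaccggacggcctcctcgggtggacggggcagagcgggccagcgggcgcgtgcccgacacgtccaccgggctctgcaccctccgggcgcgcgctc
AGO1, chr1:35882959-35883208, + strand: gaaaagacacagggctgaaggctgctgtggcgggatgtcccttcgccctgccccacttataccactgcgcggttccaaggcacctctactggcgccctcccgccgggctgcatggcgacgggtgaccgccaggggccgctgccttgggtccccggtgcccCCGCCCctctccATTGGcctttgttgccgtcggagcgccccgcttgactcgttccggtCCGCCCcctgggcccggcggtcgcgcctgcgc
AGO3, chr1:35930855-35931104, + strand: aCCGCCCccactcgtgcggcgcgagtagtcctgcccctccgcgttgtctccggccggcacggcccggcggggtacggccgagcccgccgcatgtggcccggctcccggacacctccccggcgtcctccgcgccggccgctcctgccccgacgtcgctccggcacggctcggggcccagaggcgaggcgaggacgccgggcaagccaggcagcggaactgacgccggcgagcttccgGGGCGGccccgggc
The AGO4 window held 0 matches, AGO1 held 2 GC boxes and 1 CCAAT box, and AGO3 held 2 GC boxes. The G and C content was 66.4% for AGO4, 71.6% for AGO1 and 80% for AGO3, against a median of 58% over 27303 promoter windows. Of the 8 processing genes matched to a promoter sequence, 7 held a GC box, which 42.3% of all windows held, and 5 held a CCAAT box, against 33% of all windows. The median G and C content of these 8 windows was 72%, above the 58% of all windows, and its bearing on the matches was not tested. The TATA box was found in 0 of the 8 and in 11.1% of all windows. These matches describe the windows only and are not shown to be bound.

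Set side by side, the 9 genes showed opposing patterns over the arrays. DROSHA, DICER1, AGO1, AGO2 and AGO4 were brightest on the array numbered 1 in each group, while XPO5 and AGO3 were dimmest there. Wild-type replicate 1 was the brightest of the 6 arrays for 5 of the 9 genes, and knockdown replicate 2 was the dimmest for 5. Relative to each gene's own mean over the 6 arrays, the mean of the 9 genes was 0.025, -0.17 and -0.073 on knockdown arrays 1, 2 and 3, against 0.16, 0.027 and 0.028 on the wild-type arrays. The median of the 9 genes was 0.14, -0.11 and -0.06 on the knockdown arrays, against 0.21, 0.0083 and -0.025 on the wild-type arrays, so that by the median knockdown replicate 1 lay above wild-type replicates 2 and 3, and by the mean it did not. The median of all genes stayed between -0.01 and 0.017. HSPA8, a chaperone of argonaute loading, also stood apart on the arrays numbered 1, with 9.61, 7.86 and 8.11 on the knockdown arrays, against 9.69, 8.30 and 8.13 on the wild-type arrays. What the arrays numbered 1 share was not tested. With both of them left out, an alternative chosen after seeing the data, 8 of the 9 differences lay below 0 and TARBP2 was at 0.165, while AGO3 was at -0.25 and AGO4 at -0.445 (adjusted p = 0.651 for each, limma).

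**Figure D3:**
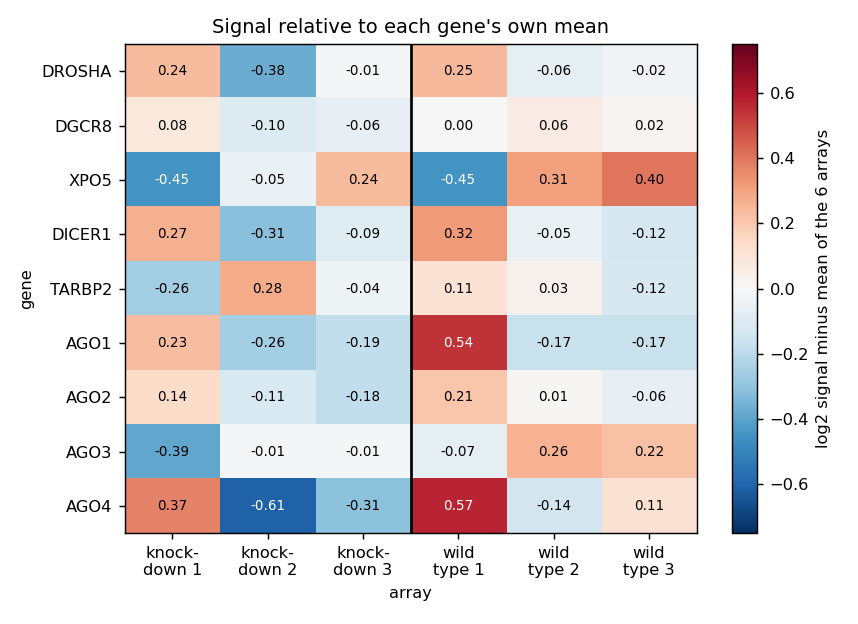
Log2 signal of each gene minus its own mean over the 6 arrays, with the 3 P68 knockdown arrays left of the line and the 3 P68 wild type arrays right of it. Red is above and blue below the gene's mean; the arrays numbered 1 are red for DROSHA, DICER1, AGO1, AGO2 and AGO4 and blue for XPO5 and AGO3.

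**Figure D4:**
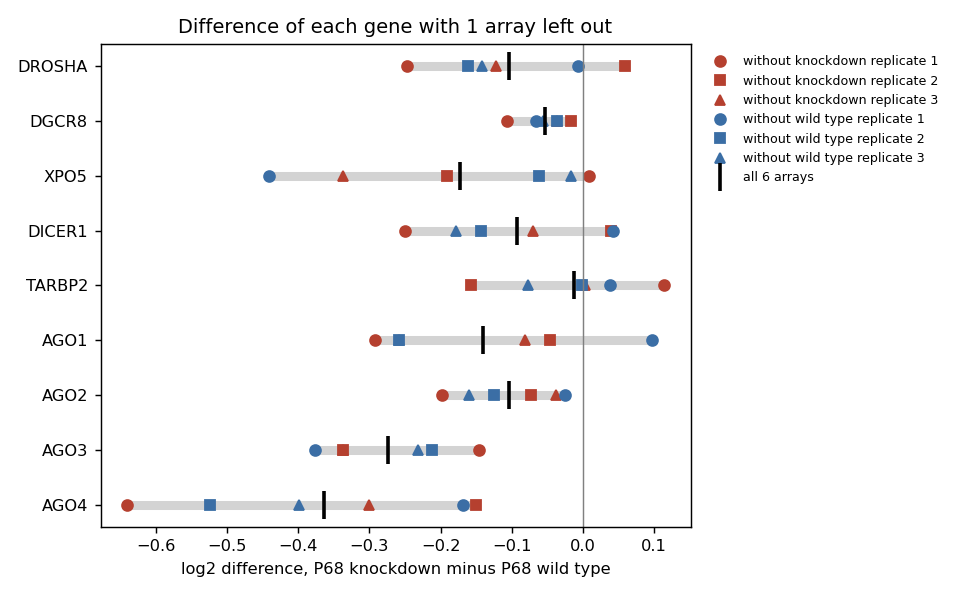
Log2 difference, P68 knockdown minus P68 wild type, with all 6 arrays (black bar) and with each array left out in turn (red for a knockdown array, blue for a wild-type array, shape for the replicate number). The ranges of DROSHA, XPO5, DICER1, TARBP2 and AGO1 cross 0, and those of DGCR8, AGO2, AGO3 and AGO4 stay below it.

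The 3 genes most like the mean profile of the 9, among 9201 other genes of at least median signal, were TBX18, TTC24 and GOLGA7. Likeness was the root mean square distance between profiles centred on their own means over the 6 arrays, which was 0.017, 0.024 and 0.026 for these genes, against a median of 0.17. The mean profile does not describe the 9 genes well. Of these, XPO5 (0.39), AGO4 (0.31), AGO3 (0.24), TARBP2 (0.23) and AGO1 (0.22) lay farther from it than that median. TBX18, a T-box transcription factor, gave 4.97, 4.78 and 4.88 on the knockdown arrays, against 5.09, 4.99 and 5.01 on the wild-type arrays.

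Other genes of the pathway were read by role in 7 lists of 62 genes, of which 58 were measured and 0 passed the threshold. Of the 58, 42 lay below 0, 15 above and 1 at 0, with a median difference of -0.075. At an unadjusted p under 0.05 there were 4 of the 58, beside 5.09% of all genes. These were DDX5 itself, SAFB2, TUT7 and PIWIL3, and SAFB2 is named after its value was seen. SAFB2, a nuclear RNA-binding scaffold protein, had a difference of -0.28 ± 0.11 (SE).

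Among 10 measured partners of the Microprocessor, which include the targeted DDX5, 8 lay below 0 (median -0.15, and -0.079 without knockdown replicate 2). DDX17, the paralog of P68 in that complex, averaged 8.06 ± 0.51 on knockdown arrays, against 7.92 ± 0.21 on wild-type arrays (SD, n = 3 each). Its signals were 8.63, 7.65 and 7.90 on knockdown arrays 1, 2 and 3, against 8.17, 7.80 and 7.80 on the wild-type arrays. The arrays numbered 1 were the brightest of both groups for DDX17, and knockdown replicate 2 was the dimmest array. HNRNPA1, a splicing factor that binds some primary transcripts, had its only unshared probe set at 2.16 to 2.32 on the 6 arrays, in the dimmest 40%, and 4 further probe sets are annotated to it together with other genes. Of 4 genes of nuclear export, 3 lay below 0 (median -0.072, with -0.12 to -0.033 when 1 array was left out, the ends being knockdown replicates 1 and 2), and XPO1, the general exportin for proteins and some RNAs, had the largest difference at -0.13 ± 0.11 (SE). RAN, the GTPase that XPO5 needs, averaged 5.18 ± 0.12 on knockdown arrays, against 5.17 ± 0.042 on wild-type arrays (SD, n = 3 each).

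Of 10 genes that assist DICER1 or tail, edit or degrade precursors, 7 lay below 0 (median -0.02, with -0.0825 when knockdown replicate 3 was left out and 0.025 when knockdown replicate 1 was). TUT7, a uridylyltransferase of precursors, gave 4.27, 3.70 and 3.99 on the knockdown arrays, against 4.41, 4.34 and 4.36 on the wild-type arrays. The groups did not overlap, and the difference was -0.38 ± 0.14 (SE) with an adjusted p of 0.902 (limma), in a gene of the dimmest 40%. Of 6 chaperones of argonaute loading, 4 lay below 0 (median -0.055, with -0.09 when wild-type replicate 3 was left out and 0.055 when wild-type replicate 1 was). HSPA8 was at -0.18 ± 0.47 (SE). HSP90AA1 was at 0.097 ± 0.11 (SE), but it lay in the dimmest 40%, with signals of 2.44 to 2.68 on the 6 arrays.

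Among 18 silencing effectors, which include the GW182 scaffolds and the deadenylases they recruit, 12 lay below 0, 5 above and 1 at 0 (median -0.052, with -0.077 when wild-type replicate 1 was left out and 0.0058 when knockdown replicate 2 was). PAN3, a subunit of a deadenylase, gave 7.45, 7.47 and 7.78 in the knockdown, against 7.59, 7.94 and 8.03 in the wild type, a difference of -0.29 ± 0.14 (SE). All 6 genes of argonaute regulation lay below 0 (median -0.19, and -0.11 without knockdown replicate 1), led by ANKRD52, a subunit of a phosphatase that acts on argonaute, at -0.27 ± 0.18 (SE). IPO8, an importin that binds argonaute, was at -0.21 ± 0.13 (SE), in the dimmest 40%. The 4 PIWI proteins, the germline branch of the argonaute family, split 2 to 2 around 0 (median 0.0033, and below 0 with any of the other scalings), and PIWIL3 averaged 3.04 ± 0.16 on knockdown arrays, against 2.72 ± 0.052 on wild-type arrays (SD, n = 3 each), in the dimmest 40%.

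**Figure D5:**
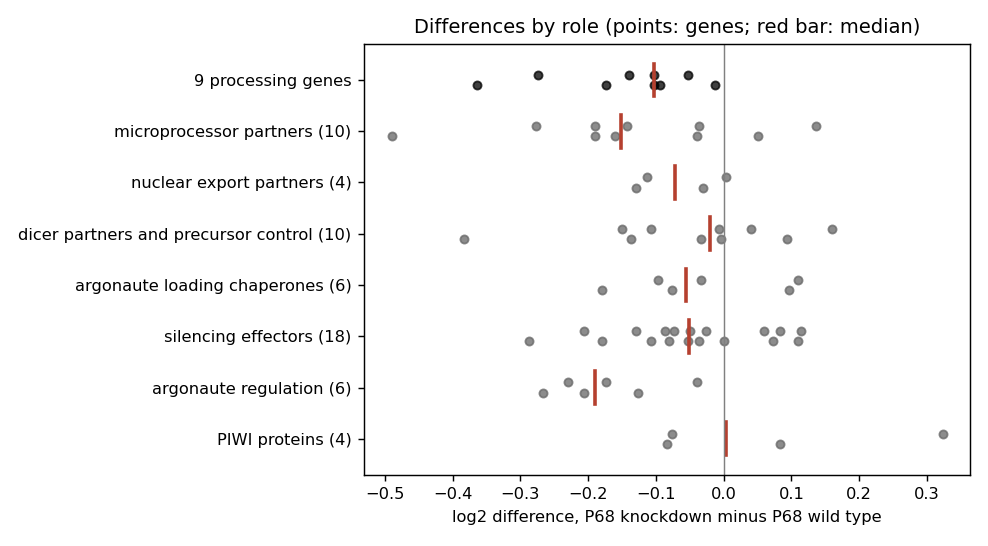
Log2 difference, P68 knockdown minus P68 wild type, of the 9 processing genes and of the measured genes of 7 lists of their partners, 1 point per gene, with the median as a red bar and the number of genes in brackets. Medians run from -0.19 for argonaute regulation to 0.0033 for the PIWI proteins.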

How the data were processed

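The 6 arrays fall into P68 knockdown (3) and P68 wild type (3). The deposited table holds log2 signals of 29096 probe sets made with RMA, per the submitters' processing notes, and the software and filters are not given in the sources consulted. RMA corrects background, gives every array the same distribution of probe signals and then summarises probes, which would hide a shift common to most transcripts. The summarised signals of the arrays were still not alike in distribution, with medians from 4.32 to 4.37. The platform annotation names 1 gene for 19460 probe sets, several for 1754 and none for 7882. The probe set with the highest mean was kept for each of 18417 genes.

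All genes were fitted with limma 3.58.1 (two-sided moderated test) under R 4.3.3 on group alone, with Benjamini-Hochberg adjustment over all genes, a threshold of 0.05 and no filter. The fit was tested on simulated data with independent noise and planted changes larger than any difference of the 9 genes. That test therefore does not bear on differences of their size. The number of arrays limits the precision, and the SE of the 9 differences ran from 0.099 to 0.24.

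The 9 genes, 7 partner lists and 5 marker lists were chosen with earlier results of these data known, and no p was adjusted over a list. Named are the 9 genes, DDX5, per partner list any gene past the threshold or else the one with the largest moderated t and the one with the largest difference, and the 3 genes of most similar profile. DDX17, RAN and HNRNPA1 are named for their known roles, after their values were seen, as are SAFB2 and the markers CD14 and SYT1 for their values. Alternatives were 3 other scalings, a filter on dim genes, 2 treatments of probe sets, a variance trend, array weights, a replicate block and leaving out arrays. Any 2 arrays differed with an SD over probe sets of 0.217 or more, so none was a duplicate. That smallest SD belonged to a knockdown and a wild-type array. Pairs across the groups also held the highest correlation, r = 0.9905, against at most 0.9859 within the knockdown and 0.9897 within the wild type.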

Additional observations from a re-analysis of the deposited data

How the results depend on the processing

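No gene passed the threshold under any of the 16 alternatives, and none of the 9 processing genes did, with the smallest adjusted p among the 9 at 0.651 (limma, both arrays numbered 1 left out, chosen after seeing the data). DDX5 stayed below 0 throughout, from -0.58 to -0.36 with 1 array left out. Under the other scalings it was -0.51 with median centring, -0.40 with repeated quantile normalization and -0.39 with cyclic loess. Scaling, filters, probe set rules, the variance trend, array weights and the block turned no processing gene's direction, AGO4 being absent from the dim filter. With 1 array left out, the median of the 9 was lowest at -0.20 when knockdown replicate 1 was dropped and highest at -0.025 when wild-type replicate 1 was. The ranges were -0.25 to 0.058 for DROSHA, -0.44 to 0.0083 for XPO5, -0.25 to 0.042 for DICER1, -0.16 to 0.11 for TARBP2 (0.165 without both arrays numbered 1) and -0.29 to 0.097 for AGO1, while DGCR8 (-0.11 to -0.017), AGO2 (-0.20 to -0.025), AGO3 (-0.38 to -0.15) and AGO4 (-0.64 to -0.15) did not turn. The cause was not tested.

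An unadjusted p under 0.05 was reached by 937 genes, by 567 with the dimmest 40% left out (11045 tested), by 1517 with every probe set tested (29096) and by 543 without wild-type replicate 2. Among the 9 genes it was reached by AGO4 without knockdown replicate 1, where 7.35% of all genes reached it. AGO4 also reached it without both arrays numbered 1, beside 7.46% of all genes. XPO5 and AGO3 reached it without wild-type replicate 1, beside 6.21% of all genes.

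The replicate numbers are not shown to pair the arrays. Deviations from the group means correlated with r = 0.268 for number 1, -0.027 for number 2 and 0.125 for number 3, and only knockdown replicate 1 correlated best with its own number. With the numbers as a replicate block, 0 genes passed, 1149 (6.24% of all genes) had an unadjusted p under 0.05, and DDX5 was at -0.49. AGO3 and AGO4 were then the members under that unadjusted limit, each with an adjusted p of 0.791 (limma).

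The list medians moved with single arrays, as given beside each list. Beyond the ends given there, leaving out wild-type replicate 2 gave -0.021 for silencing effectors, and leaving out knockdown replicate 3 gave -0.038 for nuclear export and -0.24 for argonaute regulation. Repeated quantile normalization gave -0.0017 for silencing effectors. The PIWI median was -0.013 under median centring, -0.014 under repeated quantile normalization, -0.012 under cyclic loess and -0.083 with the dimmest 40% left out, where 1 of the 4 genes remains.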
